A study of Mus musculus with 24 samples.

Results

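The 10 genes described here encode 4 S100 proteins (S100a4, S100a6, S100a10 and S100a11), 4 annexins (Anxa1, Anxa2, Anxa5 and Anxa6) and 2 galectins (Lgals1 and Lgals3). They were taken by symbol, each matched to its Ensembl identifier, from a bulk RNA-seq table of 17464 genes in mouse splenic regulatory T (Treg) cells, and all 10 were listed. The spleens came from untreated wild-type C57BL/6JRccHsd mice, 4 young (2 months old) and 4 old (26 months old). From these mice 3 Treg subsets were sorted by flow cytometry: resting Treg (rTreg, CD44-), activated Treg (aTreg, CD44+) and KLRG1+ Treg (kTreg) cells, with surface markers that include CD44 and KLRG1. This gave 6 groups of 4 libraries and 24 libraries in all, and each number from 1 to 4 recurs in the 3 subsets of an age. Libraries of an age with the same number are called a mouse below, although the labels give the number and not the animal. The study asked how kTreg cells differ from the other Treg subsets in young and in old mice.

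Most S100 proteins are small EF-hand calcium sensors that work as dimers and bind target proteins when calcium rises. Annexins bind acidic phospholipids of membranes in a calcium-dependent way, and pairs of the families form complexes, such as S100A10 with annexin A2 and S100A11 with annexin A1. Galectins bind beta-galactosides on glycoproteins, outside the cell as well as inside it. Several of these transcripts are known to be low in naive T cells and higher in effector and memory T cells.

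The 4 S100 genes lie on mouse chromosome 3 (GRCm39, GENCODE M39 annotation, all on the plus strand). S100a4 (chr3:90511074-90513354) and S100a6 (chr3:90520140-90535843) are neighbours with S100a5 between them, and S100a11 (chr3:93414382-93435293) and S100a10 (chr3:93462213-93474510) form another pair in the same family cluster. Anxa1 is on chromosome 19 (chr19:20350792-20368374, minus), Anxa2 on chromosome 9 (chr9:69360542-69399077, plus), Anxa5 on chromosome 3 (chr3:36503072-36530126, minus) and Anxa6 on chromosome 11 (chr11:54869654-54924305, minus). Lgals1 is on chromosome 15 (chr15:78810875-78814670, plus) and Lgals3 on chromosome 14 (chr14:47605208-47623624, plus).

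The promoters of S100a4 and S100a6 are shown because the log2 values of these neighbours were the most closely correlated of any members across the libraries. That of Anxa2 is shown because its product is the partner of S100A10. Each runs from 250 bases before the start of the canonical transcript to 50 bases from it, at chr3:90510825-90511124, chr3:90519890-90520189 and chr9:69360652-69360951 (GRCm39, plus strand). Capitals mark matches to TATAAA, the TATA box, to TGANTCA, the AP-1 element, and to GGGCGG, the Sp/KLF box. The letters AGATAA, read by GATA factors, and CCGGAAG, read by ETS factors, were searched as well, and every motif was searched on both strands.
S100a4: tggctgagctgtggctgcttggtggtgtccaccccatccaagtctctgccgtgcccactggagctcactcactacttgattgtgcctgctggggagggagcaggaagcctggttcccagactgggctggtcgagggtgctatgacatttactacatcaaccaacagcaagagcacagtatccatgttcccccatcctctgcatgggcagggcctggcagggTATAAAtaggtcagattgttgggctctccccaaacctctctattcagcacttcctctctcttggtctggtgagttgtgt
S100a6: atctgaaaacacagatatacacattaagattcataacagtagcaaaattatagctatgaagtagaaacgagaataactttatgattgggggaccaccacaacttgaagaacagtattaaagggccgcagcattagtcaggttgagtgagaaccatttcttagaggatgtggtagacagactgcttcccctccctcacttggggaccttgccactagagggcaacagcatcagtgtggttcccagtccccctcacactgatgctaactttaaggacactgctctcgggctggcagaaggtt
Anxa2: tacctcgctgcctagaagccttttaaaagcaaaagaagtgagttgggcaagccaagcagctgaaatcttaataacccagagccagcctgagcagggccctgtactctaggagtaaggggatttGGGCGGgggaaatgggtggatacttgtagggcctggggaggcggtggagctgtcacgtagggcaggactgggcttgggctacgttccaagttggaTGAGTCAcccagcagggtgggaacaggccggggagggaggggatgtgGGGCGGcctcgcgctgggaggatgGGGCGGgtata
In S100a4 a TATAAA began 29 bases before the start, and 13.2% of 21603 protein-coding promoters of the same length held this motif. In Anxa2 a TGAGTCA began 32 bases before the start, beside 3 GGGCGG matches. The AP-1 letters were found in 7.12% and the Sp/KLF letters in 42.8% of all promoters, and the GATA and ETS letters, absent from these 3 windows, in 10.6% and 10.3%. The S100a6 window held none of the motifs searched. These matches and distances hold for the canonical starts used here. The RefSeq promoter windows were offset from them by -2 bases for S100a4, -61 for S100a6 and -63 for Anxa2.

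The libraries held 15045747 to 29521942 reads on listed genes. The sort markers followed the labels for KLRG1, since Klrg1 was 16559 to 41561 normalized counts in the 8 kTreg libraries and at most 357 in the others. Foxp3, the lineage factor of Treg cells, was 13151 to 37793 in 23 libraries and 5079 in old aTreg replicate 2, which also stood apart in Cd7, a galectin-1 receptor (11048 against at most 4447 elsewhere). In young kTreg replicate 4, 4913 genes were at 0, against at most 2756 in any other library. The 3 libraries of young mouse 2 carried B cell transcripts (9 markers, summed 9186 to 19411, against 623 to 2065 elsewhere), and myeloid markers are given with the results they move with. The comparisons below were also made without old aTreg replicate 2 and young kTreg replicate 4, and without these and young mouse 2. These alternatives were chosen after the data were seen. In bulk RNA a change per cell and a change in the share of cells that carry a transcript cannot be told apart.

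Most of the genes were higher in kTreg cells than in aTreg cells of young mice. Most rose with age in rTreg and aTreg cells, while no rise was called in kTreg cells. A gene was called when its adjusted p in a limma model of log2(normalized count + 1) across 16630 genes was under 0.05 and its fold change exceeded 1.5. Between young kTreg and young aTreg cells 9 of the 10 genes were called higher, all but Anxa5, where 3.46% of all genes tested were called higher. Between old kTreg and old aTreg cells 1 gene was called higher, Lgals3, with 1.33% of all genes called higher. With age, 6 genes rose in rTreg cells (4.12% of all genes rose), 7 rose in aTreg cells (1.85%) and none was called in kTreg cells (1.26% called in either direction). Shares of 1.33% and 1.26% are too low for a count of 0 or 1 among 10 genes to be read as an absence of change. The log2 fold change with age was above 0 for all 10 genes in rTreg and in aTreg cells, and for 2 of the 10 in kTreg cells. The median log2 fold change of the 10 genes between kTreg and aTreg cells was 1.77 in young mice and -0.17 in old mice, beside -0.12 and 0.01 over all genes. Without the 2 libraries that stand apart the counts were 9 in young and 1 in old mice for kTreg against aTreg cells, and 7, 6 and 0 for age in rTreg, aTreg and kTreg cells. All shares of genes called belong to the limma fit of the 24 libraries, and none is given for an alternative. The 10 genes were chosen with earlier results of these data known, so their counts beside these shares are descriptions.

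S100a4, also known as metastasin or FSP1, binds non-muscle myosin and takes part in cell motility. It was 1306, 1121, 676 and 402 normalized counts in the young rTreg libraries, 2185, 1778, 2328 and 1562 in young aTreg and 10052, 5762, 8490 and 19381 in young kTreg cells. In old mice it was 4235, 5144, 7257 and 2849 in rTreg, 7506, 16946, 5417 and 4128 in aTreg and 6887, 7020, 7897 and 5038 in kTreg cells. The 3 young subsets did not overlap one another, whereas the 3 old subsets did, and every old rTreg and aTreg library lay above every young one of the same subset. In young mice S100a4 was 5.09-fold higher in kTreg than in aTreg cells (log2 fold change 2.35 ± 0.41 SE, adjusted p = 0.000812, limma) and 12.4-fold higher than in rTreg cells (3.63 ± 0.41, adjusted p = 1.21e-06). In old mice the log2 fold change between kTreg and aTreg cells was -0.14 ± 0.41 (adjusted p = 0.944). With age S100a4 rose 5.79-fold in rTreg (adjusted p = 0.00043) and 3.77-fold in aTreg cells (adjusted p = 0.00926). The aTreg change rested in part on old aTreg replicate 2, without which the log2 fold change was 1.51 in place of 1.91 and the adjusted p 0.0520.

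S100a6, or calcyclin, is a neighbour of S100a4 that binds calcyclin-binding protein and several annexins. Its values in replicates 1 to 4 were 1854, 1717, 1047 and 687 in young rTreg, 2303, 1444, 1993 and 1502 in young aTreg and 9866, 6430, 8783 and 14331 in young kTreg cells. In old mice they were 5140, 5861, 8016 and 3100 in rTreg, 10219, 27804, 5944 and 5483 in aTreg and 7850, 6479, 6899 and 5439 in kTreg cells. Young kTreg libraries lay above all other young libraries, young rTreg and aTreg libraries overlapped, and the highest value of all was old aTreg replicate 2. S100a6 was 5.32-fold higher in young kTreg than young aTreg cells (log2 fold change 2.41 ± 0.40, adjusted p = 0.000602), and -0.57 ± 0.40 on the log2 scale in old mice (adjusted p = 0.545). It rose 4.25-fold with age in rTreg (adjusted p = 0.00243) and 5.52-fold in aTreg cells (adjusted p = 0.00102), and in aTreg cells the log2 fold change without replicate 2 of the old mice was 1.96 (adjusted p = 0.0027).

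S100a10, the p11 subunit of the annexin A2 complex, and S100a11, or calgizzarin, a partner of annexin A1, were both highest in kTreg cells among the young subsets. S100a10 was 8952 to 14509 in young rTreg, 6344 to 10516 in young aTreg and 14027 to 34483 in young kTreg cells, and 10233 to 22534 over all old libraries. Its young kTreg libraries were above its young aTreg libraries (2.64-fold, adjusted p = 0.00159), and no change with age was called in any subset. S100a11 was 1690, 1539, 1339 and 782 in young rTreg, 2965, 1841, 2501 and 1816 in young aTreg and 6766, 4780, 6325 and 6302 in young kTreg cells. It was 3354, 3283, 3359 and 2388 in old rTreg, 5032, 9501, 4003 and 4481 in old aTreg and 4678, 4631, 4927 and 4603 in old kTreg cells. Old rTreg libraries were thus the lowest of the old libraries and still above every young rTreg library. S100a11 rose with age 2.39-fold in rTreg (adjusted p = 0.00229) and 2.42-fold in aTreg cells (adjusted p = 0.00314). The count of S100a11 is uncertain because 2 processed pseudogenes match it closely. Gm7665 (98.7% identity over 297 bases) was listed at 20.03% to 26.3% of the S100a11 value and Gm12854 (99.0% over 297 bases) at 7.68% to 12.3%, and how reads that match several places were counted is not given in the sources used here.

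**Figure D1:**
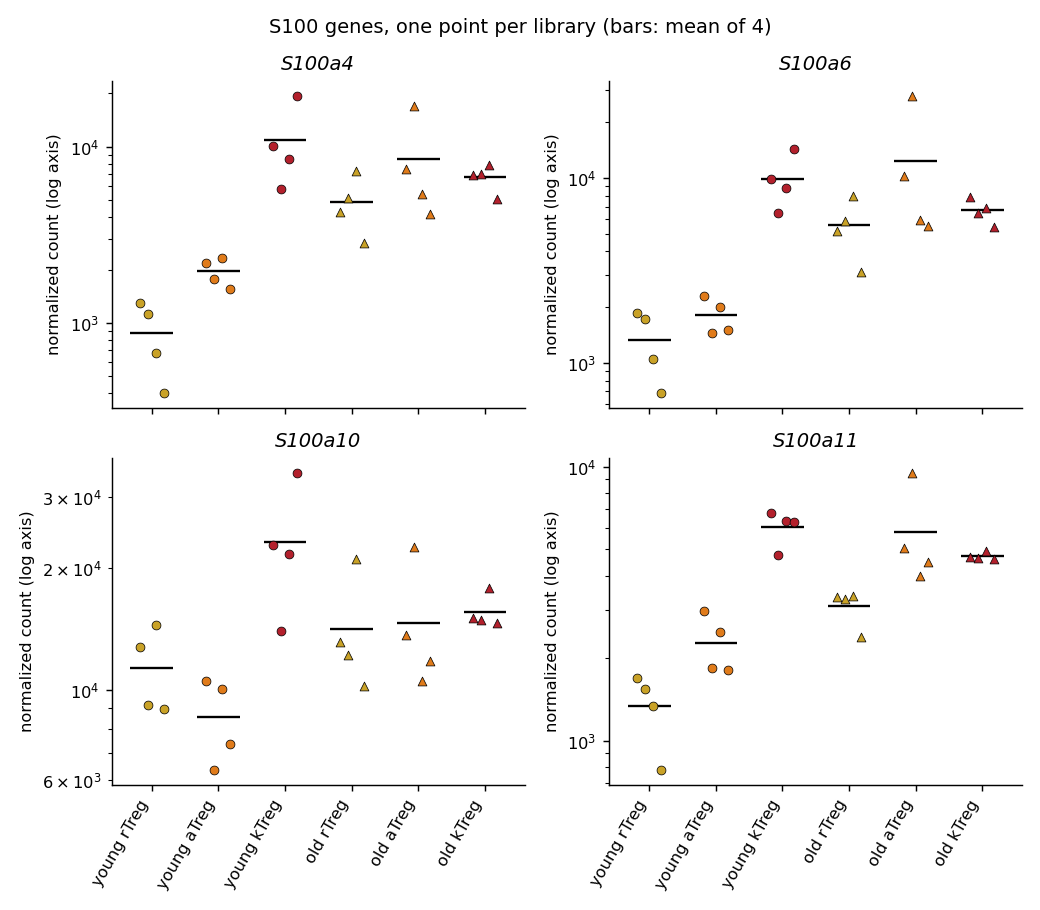
Normalized count (log axis) of S100a4, S100a6, S100a10 and S100a11 in each of the 24 libraries, by group (circles young, triangles old, bars mean of 4 libraries). For S100a4 and S100a6 the young rTreg and aTreg libraries sit at 402 to 2328, and the young kTreg and all old libraries at 2849 or above.

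Anxa1, the glucocorticoid-regulated annexin that signals through formyl peptide receptors, was the least abundant member per kb of exon. It was 99.7, 409, 85.7 and 63.2 in young rTreg, 283, 527, 236 and 209 in young aTreg and 1419, 991, 1545 and 1186 in young kTreg cells. In old mice it was 1461, 2100, 1787 and 1003 in rTreg, 1761, 3903, 1148 and 783 in aTreg and 1221, 1680, 1520 and 1435 in kTreg cells. All old libraries and all young kTreg libraries lay above the other 8, and the highest values of young rTreg and young aTreg cells were both from mouse 2. Anxa1 had the largest change with age in rTreg cells of the 10 genes, 12.4-fold (log2 fold change 3.64 ± 0.47, adjusted p = 4.46e-05), and rose 5.37-fold in aTreg cells (adjusted p = 0.00404). In young mice it was 4.31-fold higher in kTreg than in aTreg cells (adjusted p = 0.00618) and 10.3-fold higher than in rTreg cells (adjusted p = 1.9e-05). The call against aTreg cells was lost without young mouse 1 (adjusted p = 0.0531) or young mouse 3 (adjusted p = 0.0683).

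Anxa2, which links membranes to actin and binds S100A10, differed from the S100 genes in being highest in old rTreg cells. It was 3204, 2930, 2211 and 1706 in young rTreg, 2084, 1652, 1469 and 1248 in young aTreg and 5224, 2900, 4055 and 3898 in young kTreg cells. It was 6700, 7867, 11244 and 5916 in old rTreg, 4234, 6121, 3550 and 3419 in old aTreg and 3956, 2873, 3235 and 2695 in old kTreg cells. In old mice the kTreg libraries lay below all rTreg libraries, and in young mice above all aTreg libraries. Anxa2 was 2.48-fold higher in young kTreg than young aTreg cells (adjusted p = 0.00105) and lower in old kTreg than old rTreg cells (log2 fold change -1.29 ± 0.24, adjusted p = 0.00117). It rose 3.15-fold with age in rTreg (adjusted p = 0.000129) and 2.66-fold in aTreg cells (adjusted p = 0.00116).

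Anxa5, which binds phosphatidylserine and is the reagent used to stain dying cells, varied little, from 3068 to 7193 over the 24 libraries. It was 3068 to 3921 in young aTreg and 4930 to 7193 in old aTreg cells, which did not overlap, and its 1.65-fold rise there was called (adjusted p = 0.000834). In old mice its kTreg libraries (4105 to 4890) lay below all aTreg and all rTreg libraries (4930 or above), a difference under the fold threshold with adjusted p = 0.126 and 0.132. Anxa6, a long annexin of the plasma membrane and endosomes, was 10880 to 15925 in young rTreg and aTreg cells, 18465 to 23419 in young kTreg cells and 13483 to 23169 in old mice. It was 1.76-fold higher in young kTreg than young aTreg cells (log2 fold change 0.82 ± 0.14, adjusted p = 0.000718). Its rises with age in rTreg and aTreg cells were 1.35-fold and 1.43-fold, under the fold threshold.

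Lgals1, a galectin that Treg cells release and that binds CD7, CD43 and CD45, was 4934, 4575, 4269 and 3053 in young rTreg, 3380, 2570, 3111 and 2413 in young aTreg and 14012, 6964, 11106 and 21250 in young kTreg cells. In old mice it was 8295, 7672, 14207 and 5673 in rTreg, 8649, 19784, 4541 and 4402 in aTreg and 7976, 5553, 6865 and 5277 in kTreg cells. Each young kTreg library lay above all other young libraries, and the old subsets overlapped. Lgals1 was 4.33-fold higher in young kTreg than young aTreg cells (log2 fold change 2.12 ± 0.38, adjusted p = 0.000972) and 2.97-fold higher than in young rTreg cells (adjusted p = 0.00477). The 2.69-fold rise with age in aTreg cells (adjusted p = 0.0376) was lost when any of 6 libraries was left out, with log2 fold changes of 0.97 to 1.69 over all libraries and mice left out in turn and 0.97 without old aTreg replicate 2. The rise in rTreg cells was 2.04-fold with adjusted p = 0.102.

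Lgals3, the chimera-type galectin that binds N-glycans of the T cell receptor complex and is also abundant in macrophages, was called higher in kTreg than in aTreg cells in both ages. It was 371, 614, 272 and 163 in young rTreg, 260, 265, 231 and 296 in young aTreg and 2267, 2063, 2040 and 3066 in young kTreg cells. In old mice it was 2711, 1920, 3770 and 1478 in rTreg, 420, 165, 774 and 346 in aTreg and 1467, 1236, 1461 and 940 in kTreg cells. The kTreg libraries lay above all aTreg libraries of the same age, in young and in old mice. The fold change was 8.85 in young mice (log2 fold change 3.15 ± 0.38, adjusted p = 2.27e-05) and 3.39 in old mice (1.76 ± 0.38, adjusted p = 0.0164). In old mice the call was lost without old aTreg replicate 2 (log2 fold change 1.38, adjusted p = 0.0856) or without old kTreg replicate 3 (1.69, adjusted p = 0.0685), and without old mouse 1 or old mouse 2. Lgals3 rose 7.31-fold with age in rTreg cells (adjusted p = 6.1e-05). In kTreg cells the old libraries all lay below the young ones, with a log2 fold change of -0.89 ± 0.38 that did not pass the test (adjusted p = 0.277).

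**Figure D2:**
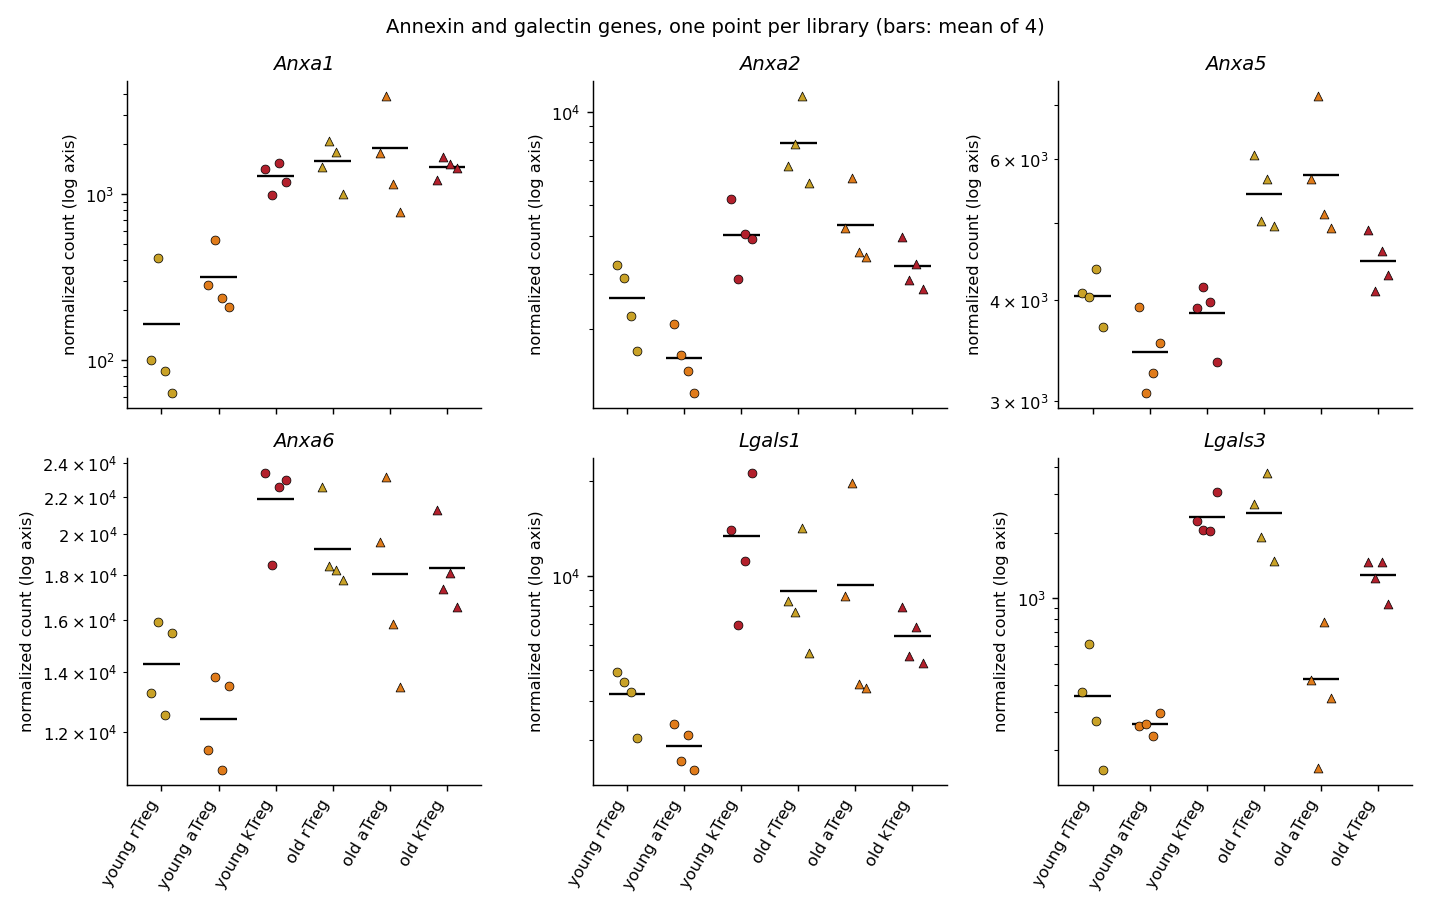
Normalized count (log axis) of the 4 annexin and 2 galectin genes in each of the 24 libraries, by group (circles young, triangles old, bars mean of 4 libraries). Anxa1 is at 63.2 to 527 in young rTreg and aTreg libraries and at 783 or above elsewhere, and Lgals3 is at 165 to 774 in old aTreg libraries against 940 to 1467 in old kTreg libraries.

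Levels between genes were compared per kb of merged exons, as the mean of the 6 groups. S100a4 was the most abundant (6212 normalized counts per kb), followed by Lgals1 (4448), S100a6 (2661), Anxa6 (2561), S100a10 (2103), S100a11 (1448), Anxa2 (782), Anxa5 (531), Lgals3 (517) and Anxa1 (358). With the longest transcript as the length Anxa2 and S100a11 changed places. Anxa5 and Lgals3 lay close to each other, as did S100a6 and Anxa6.

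Averaged over both ages, 6 of the 10 genes were called higher in kTreg than in aTreg cells, where 4.13% of all genes were. These were Lgals3 (5.48-fold, adjusted p = 3.45e-06), S100a4 (2.15-fold, 0.0136), S100a6 (1.89-fold, 0.0372), Lgals1 (1.89-fold, 0.0254), S100a10 (1.72-fold, 0.00773) and S100a11 (1.53-fold, 0.0199). Anxa1 missed the threshold with a log2 fold change of 0.996 ± 0.33 (adjusted p = 0.0533) and Anxa6 passed the p threshold at 1.35-fold (0.00559). The edgeR quasi-likelihood test on the recovered reads called 3 of the 10. The calls of S100a6, S100a11 and Lgals1 were lost when any of 12, 5 and 3 libraries, respectively, was left out, with log2 fold changes of 0.78 to 1.18, 0.53 to 0.75 and 0.75 to 1.18 (this and the ranges below also cover each mouse left out). Without the 2 libraries that stand apart 7 genes were called, Anxa1 being added (log2 fold change 1.23, adjusted p = 0.0124).

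Against rTreg cells, kTreg cells of young mice were higher in 9 of the 10 genes, where 8.24% of all genes were called higher. The fold changes ran from 1.53 for Anxa6 to 12.4 for S100a4, and only Anxa5 was not called (log2 fold change -0.07 ± 0.11). The calls of Anxa2 (1.61-fold) and Anxa6 were lost when any of 11 and 3 libraries, respectively, was left out, and that of Anxa2 also under TMM scaling, by edgeR and with only the groups compared in the model. Without young mouse 4 the calls of S100a10 (adjusted p = 0.0978) and Lgals1 (adjusted p = 0.0522) were lost too, and the count was 6. In old mice 1 gene, Anxa2, was called lower in kTreg cells (3.09% of all genes were), and no gene was called higher (5.77%) by limma, edgeR or DESeq2, with 1 higher at an unadjusted p under 0.05. That gene was S100a11, at 4603 to 4927 in old kTreg and 2388 to 3359 in old rTreg cells (1.54-fold, adjusted p = 0.107), and it was called without the 2 libraries that stand apart. Averaged over both ages S100a4, S100a6, S100a10, S100a11, Anxa1 and Lgals3 were called higher in kTreg than rTreg cells, 6 of 10 beside 9.37% of all genes. The S100a10 call (1.51-fold) was lost when any of 7 libraries was left out, with log2 fold changes of 0.43 to 0.70, and without the 2 libraries that stand apart (0.49).

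Between aTreg and rTreg cells the genes divided. Over both ages S100a4 (1.97-fold) and S100a11 (1.75-fold) were called higher in aTreg cells, 2 of 10 beside 5.23% of all genes. Anxa2 (log2 fold change -0.75 ± 0.17, adjusted p = 0.00459) and Lgals3 (-1.46 ± 0.27, adjusted p = 0.000894) were called lower, beside 2.78% of all genes. The S100a4 call was lost when any of 8 libraries was left out, with log2 fold changes of 0.77 to 1.16. In young mice no gene was called by limma or edgeR (3.35% of all genes called in either direction), 1 was called by DESeq2 and 4 passed an unadjusted p under 0.05 with the fold threshold. Without the 2 libraries that stand apart 2 were called higher in young mice. In old mice Lgals3 (log2 fold change -2.65 ± 0.38, adjusted p = 0.000105) and Anxa2 (-0.87 ± 0.24, adjusted p = 0.0209) were called lower in aTreg cells, 2 of 10 beside 3.78% of all genes. The Anxa2 call was lost when any of 3 libraries was left out, with log2 fold changes of -1.05 to -0.61. S100a11 was called higher in old aTreg cells (1.76-fold, adjusted p = 0.0319), 1 of 10 beside 4.82%, and this call was lost without old rTreg replicate 4, old aTreg replicate 1 or old aTreg replicate 2 (log2 fold change 0.55 without the last).

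**Figure D3:**
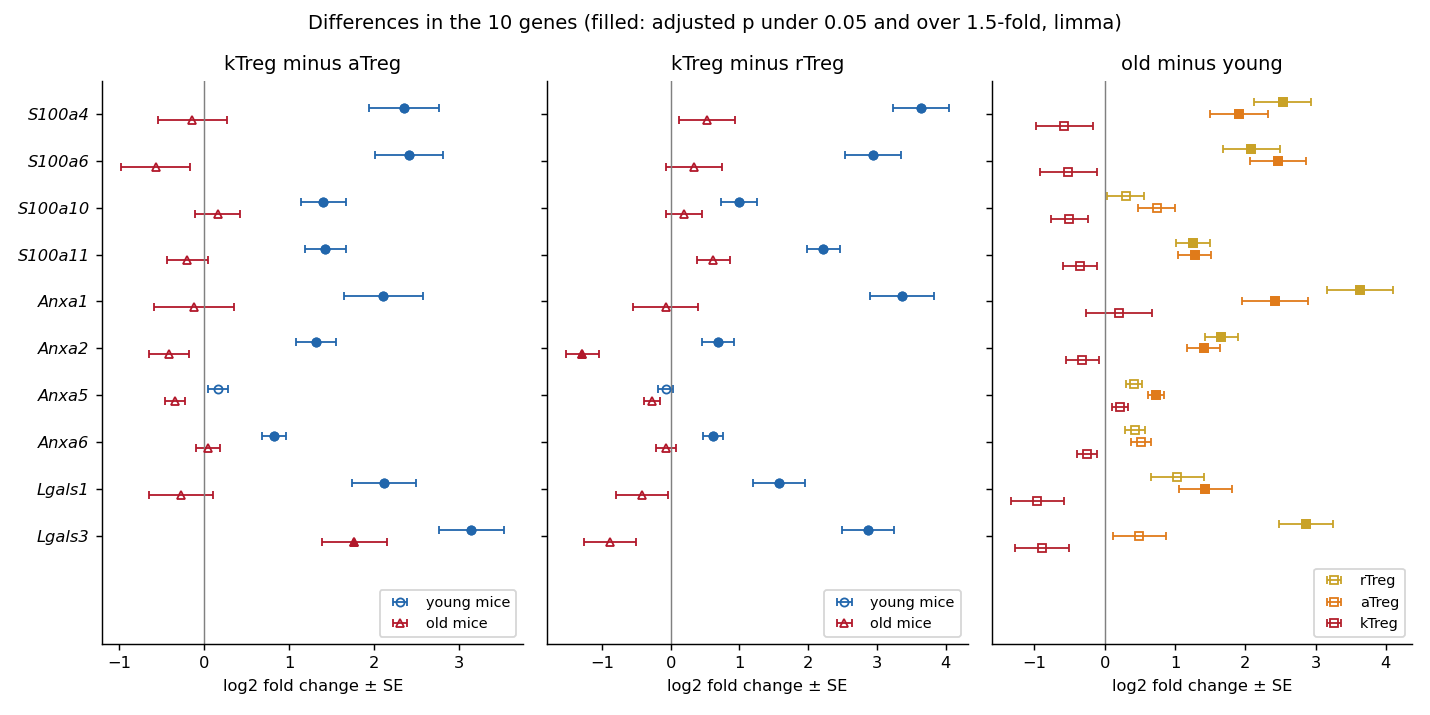
Log2 fold change ± SE (limma) of the 10 genes between kTreg and aTreg cells, between kTreg and rTreg cells, and between old and young cells of each subset (4 libraries a group; filled symbols are called). In the kTreg against aTreg panel 9 of the young symbols and 1 of the old symbols are filled, and in the age panel no kTreg symbol is filled.

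Age separated the rTreg and aTreg libraries for most of the genes. In rTreg cells 9 of the 10 genes had old libraries that did not overlap the young ones, all but S100a10, beside 11.7% of all genes whose groups did not overlap in either direction. In aTreg cells 7 of the 10 did (13.4% of all genes) and in kTreg cells 1 did, Lgals3 (10.5%). The median log2 fold change of the 10 genes was 1.46 in rTreg, 1.34 in aTreg and -0.43 in kTreg cells, beside -0.08, 0.01 and 0.12 over all genes. In kTreg cells edgeR and DESeq2 also called none of the 10, and 2 genes, Lgals1 and Lgals3, were lower at an unadjusted p under 0.05 with the fold threshold.

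The change of subset differences with age was tested directly, as an interaction. From young to old mice the difference between kTreg and rTreg cells fell for 7 of the 10 genes, where it fell for 2.03% of all genes. The interaction was -3.76 ± 0.54 on the log2 scale for Lgals3 (adjusted p = 0.000596), -3.44 ± 0.66 for Anxa1 (0.00554), -3.11 ± 0.58 for S100a4 (0.00446) and -2.60 ± 0.57 for S100a6 (0.0121). It was -1.99 ± 0.53 for Lgals1 (0.0428), -1.98 ± 0.33 for Anxa2 (0.00209) and -1.60 ± 0.34 for S100a11 (0.0099). The Lgals1 interaction was lost when any of 16 libraries was left out (log2 -2.31 to -1.58), and the other 6 were called whichever single library was left out, although S100a6 and S100a11 were not called without young mouse 3 (adjusted p = 0.0692 and 0.0570). The difference between kTreg and aTreg cells fell with age for S100a6 (-2.98 ± 0.57, adjusted p = 0.0363) and Anxa2 (-1.73 ± 0.33, 0.0363), 2 of 10 beside 0.114% of all genes. This count was 0 without the 2 libraries that stand apart, 5 by edgeR and 8 by DESeq2. The shares of all genes under these alternatives are not given here, so 5 and 8 cannot be read against 0.114%. In the limma fit the interaction was below 0 for all 10 genes. The 2 calls were lost when any of 12 and 11 libraries, respectively, was left out, with log2 values of -3.26 to -2.47 and -1.89 to -1.503. Between aTreg and rTreg cells the difference fell with age for Lgals3 (-2.37 ± 0.54, adjusted p = 0.0292), 1 of 10 beside 1.05% of all genes, and this was lost when any of 6 libraries was left out (log2 -2.73 to -1.99).

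Transcripts of macrophages and monocytes moved with some of these results. All 12 markers fixed for these cells were listed. Their summed normalized count was 10371 to 27272 in old rTreg, 2531 to 4392 in old kTreg and 387 to 675 in old aTreg cells, where Fcgr1 was at 0 in each library. In young mice the sums of replicate 2 were 10038 in rTreg, 3599 in aTreg and 45694 in kTreg cells, and those of the other replicates 647 to 1433 in rTreg, 154 to 386 in aTreg and 412 to 1407 in kTreg cells. In old rTreg cells most of the sum was Lyz2, lysozyme, at 16258, 9633, 25153 and 9381, while C1qa was at most 48.6. Among these libraries replicate 3 was highest in Lyz2, Lgals3, Anxa2, S100a4, S100a6, S100a10, S100a11 and Lgals1. Anxa1 was highest in replicate 2 (2100), and Anxa5 and Anxa6 were highest in replicate 1 (6071 and 22578). Replicate 4 was lowest in Lyz2 and in all 10 genes. By the sum of the 12 markers, however, replicate 2 was the lowest (10371), with 10594 in replicate 4. The 10 neutrophil markers summed to 12747 and 12362 in old rTreg replicates 2 and 3, against 747 and 1053 in replicates 1 and 4 and at most 3321 in any other library. The 4 plasma cell markers listed, of 5, summed to 3203 to 9574 in old rTreg cells and to at most 2061 elsewhere. The part of these transcripts in the results of old rTreg cells, or of any other group, was not tested. The macrophage and neutrophil sums of old aTreg cells were at most 675 and 211. In these cells S100a4, S100a6, S100a11, Anxa1 and Anxa2 were called higher than in young aTreg cells. The 5 calls were also made without young mouse 2 and both libraries that stand apart (log2 fold changes of 0.91 to 2.27). Anxa5 and Lgals1, called higher in old aTreg cells with all libraries, were not called at that setting (0.55 and 0.92). Among young kTreg libraries, replicate 2 with a myeloid sum of 45694 had an Lgals3 of 2063, within the range of the other 3 (2040 to 3066). It had the highest Anxa5 (4162) and the lowest S100a4, S100a6, S100a10, S100a11, Anxa1, Anxa2, Anxa6 and Lgals1. What the myeloid transcripts contribute to the values of old aTreg and young kTreg cells was not tested.

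**Figure D4:**
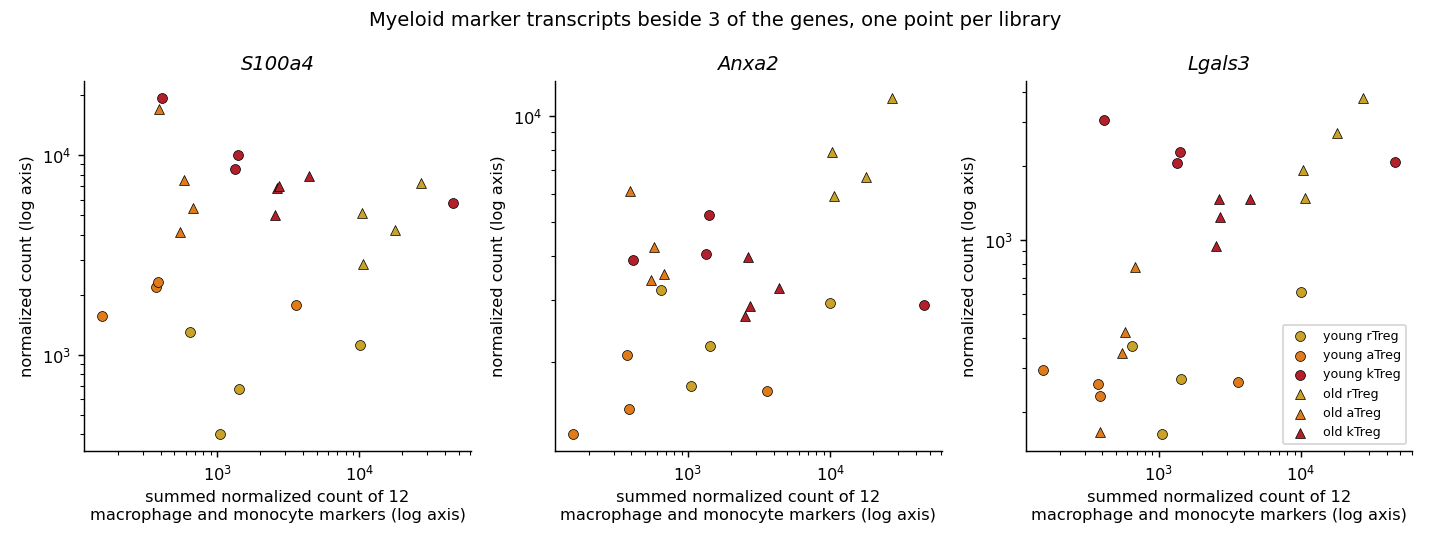
Normalized count of S100a4, Anxa2 and Lgals3 (log axis) against the summed normalized count of 12 macrophage and monocyte markers (log axis) in each of the 24 libraries. The 4 old rTreg libraries lie at marker sums of 10371 to 27272, and the old aTreg libraries at 387 to 675 with S100a4 at 4128 to 16946.

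In the order of the group means on the log2 scale, young rTreg or young aTreg cells were the lowest group for all 10 genes. Young kTreg cells were the highest for S100a4, S100a10, S100a11, Anxa6, Lgals1 and Lgals3, old aTreg cells for S100a6, Anxa1 and Anxa5, and old rTreg cells for Anxa2. Neighbours in the order were separated by a call in 4 places. These were old rTreg above young aTreg for S100a6 (log2 1.56, adjusted p = 0.026), young kTreg above young aTreg for Anxa1, old rTreg above old aTreg for Anxa2 and old kTreg above old aTreg for Lgals3. No call separated the other neighbouring groups. Some of these still did not overlap, such as S100a4 in young aTreg (1562 to 2328) and young rTreg cells (402 to 1306). For S100a4, the top 4 groups (young kTreg, old aTreg, old kTreg and old rTreg) lay within steps of 0.14 to 0.52 on the log2 scale.

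The genes closest to each member were ranked by Pearson's r of log2 values over the 24 libraries, among 16630 genes. These correlations are descriptions, since libraries of a group share their condition and those with the same number may share the animal. S100a6 was closest to S100a4 (r = 0.97, and 0.96 for deviations from the group means), followed by S100a11 (0.96) and Gna15, which encodes a G protein alpha subunit of blood cells (0.96). Gna15 was also among the 3 genes closest to Anxa1 (0.90). S100a10 and Lgals1 were closest to each other (0.91), and Gmfg, an actin-branch regulator, was among the 3 closest to both (0.88 and 0.88). Vim, vimentin, was among the 3 closest to Lgals1 (0.89) and Anxa6 (0.91). Anxa2 was closest to Plp2 (0.86), Plp2rt (0.85) and Gm11223 (0.84), and S100a10, its protein partner, was at 0.57. S100a11 was closest to its own pseudogenes Gm7665 and Gm12854 (0.99 and 0.98), which may share its reads. Lgals3 stood apart within groups, where its deviations from the group means had an r between -0.17 and 0.21 with the other 9 genes.

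**Figure D5:**
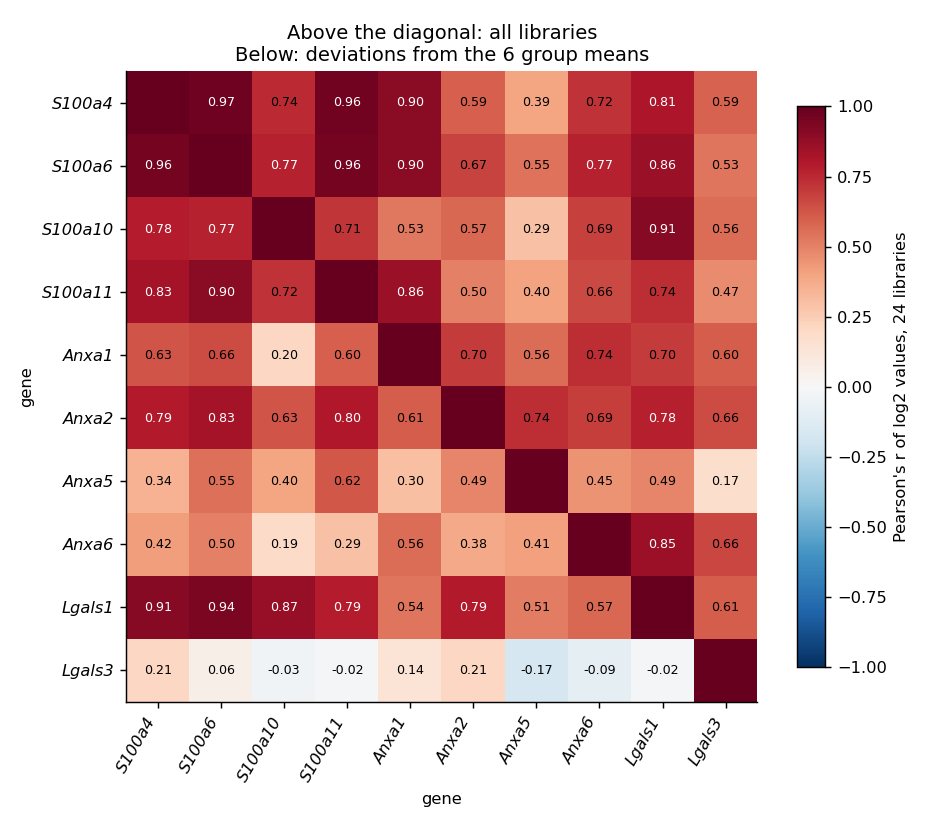
Pearson's r of log2(normalized count + 1) between the 10 genes, over 24 libraries above the diagonal and for deviations from the 6 group means below it. S100a4, S100a6 and S100a11 form a block at 0.96 to 0.97 above the diagonal, and the Lgals3 row below it lies between -0.17 and 0.21.

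The gene lists below were chosen with earlier results of these data known. Their counts beside the shares of all genes are therefore descriptions and no test of the lists. Of 14 genes listed as other S100 genes, which include S100pbp, the gene of an S100P-binding protein, 6 were tested. None of them was called between kTreg and aTreg cells over both ages by limma. S100a1, a striated muscle S100 expressed at low levels here, was called higher in kTreg than in rTreg cells (log2 fold change 1.42 ± 0.44, adjusted p = 0.0231), at 68.5 to 439 normalized counts in kTreg and 15.1 to 129 in rTreg cells. S100a13, which helps export proteins that lack a signal peptide, had a log2 fold change of 0.24 ± 0.26 against aTreg cells and followed the libraries that stand apart (4562 in old aTreg replicate 2 and 4359 in young kTreg replicate 4, against 838 to 2975 elsewhere). Among the members, these libraries were also the highest for S100a4 (16946 and 19381) and Lgals1 (19784 and 21250). Without both, the log2 fold changes of S100a4 and Lgals1 between young kTreg and young aTreg cells were 2.03 and 1.85, still called. S100a8 and S100a9, the calprotectin genes of neutrophils, reached 1797 and 3613, and 2684 and 5193, in old rTreg replicates 2 and 3, the libraries with the neutrophil markers, and were at most 21.3 in replicates 1 and 4.

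Of 8 other annexin genes 5 were tested, and 2 were called higher in kTreg than in aTreg cells, beside 4.13% of all genes. Anxa4 was 914 to 1380 in kTreg libraries and 433 to 708 in aTreg libraries, with no overlap in either age (log2 fold change 0.99 ± 0.23, adjusted p = 0.00561). Anxa11, an annexin that tethers RNA granules to lysosomes, was 687 to 1028 in kTreg and 435 to 668 in aTreg cells (0.70 ± 0.11, adjusted p = 0.000148). Both were also called higher in kTreg than in rTreg cells (2.83-fold and 1.70-fold), as was the low Anxa9 (at most 210 normalized counts in any library), 3 of the 5 tested beside 9.37% of all genes. The Anxa9 call was lost by edgeR (adjusted p = 0.0516). Of 8 other galectin genes 5 were tested and none was called between kTreg and aTreg cells. Lgalsl, a galectin-like gene, was called higher in kTreg than in rTreg cells (1.41 ± 0.25, adjusted p = 0.000227). Lgals9, the ligand of TIM-3, was 6497 to 8842 in kTreg, 6559 to 9281 in aTreg and 7618 to 12105 in rTreg cells, and its log2 fold change was -0.06 ± 0.08 against aTreg and -0.37 ± 0.08 against rTreg cells, the latter under the fold threshold.

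Among 16 tested binding partners and receptors, 3 were called higher in kTreg than in aTreg cells, beside 4.13% of all genes. Havcr2, which encodes TIM-3, was 778 to 1348 in young kTreg, 328 to 391 in old kTreg and at most 224 in aTreg libraries (log2 fold change 2.41 ± 0.49, adjusted p = 0.00198). Ahnak, the scaffold that the annexin A2 and S100A10 complex binds, was higher against aTreg (0.69 ± 0.16, adjusted p = 0.00624) and rTreg cells (2.70-fold, adjusted p = 8.75e-07). Capn1, a calcium-dependent protease, was 0.63 ± 0.14 higher on the log2 scale (adjusted p = 0.00452). The Ahnak call against aTreg cells and the Capn1 call were lost without the 2 libraries that stand apart (0.58 and 0.53). Against rTreg cells Tlr4, a receptor of S100A8 and S100A9, was called higher (2.35 ± 0.56, adjusted p = 0.00343) and Ager, the RAGE receptor of S100 proteins, lower (-1.98 ± 0.52, adjusted p = 0.00724).

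Of 18 tested genes listed as cytoskeleton and migration genes, 6 were called higher in kTreg than in aTreg cells, beside 4.13% of all genes. This list too was chosen with earlier results known, so its counts are descriptions. These were Lmna, lamin A/C (log2 fold change 1.78 ± 0.22, adjusted p = 1.51e-05), Crip1 (0.94 ± 0.25), Glrx (0.94 ± 0.15), Vim (0.76 ± 0.13), Ahnak and Itgb1, the integrin beta-1 chain (0.59 ± 0.18). Glrx, in the list, encodes the redox enzyme glutaredoxin and no cytoskeleton protein. Ahnak is also counted among the partners above, so the counts of the lists are not separate. The Itgb1 call was lost when any of 6 libraries was left out (log2 0.42 to 0.66), under TMM scaling, and by edgeR and DESeq2. Lmna was 1532 to 3306 in young kTreg and 264 to 397 in young aTreg cells, and 692 to 1017 and 331 to 1057 in the old ones. Its difference between kTreg and aTreg cells fell with age (interaction -2.29 ± 0.44, adjusted p = 0.0363), and it was called lower in old than in young kTreg cells (-1.42 ± 0.31, adjusted p = 0.0231). In young mice 10 of the 18 genes were called higher in kTreg than in aTreg cells, beside 3.46% of all genes. In old mice none was, where 1.33% of all genes were, a share too low for a count of 0 among 18 genes to be read. Against rTreg cells 5 of the 18 genes were called higher in kTreg cells, beside 9.37% of all genes, namely Cd44, Capg, Lmna, Glrx and Ahnak. Called lower were 2 of the 18, among them Actb, beta-actin (-0.61 ± 0.12). The share of all genes called lower is not given here, so that count is not read as a result about the list. The Actb and Capg calls, near the fold threshold, were lost when any of 3 and 6 libraries, respectively, was left out (log2 -0.66 to -0.55 and 0.51 to 0.66).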

How the data were processed

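Bulk RNA-seq libraries (SMART-Seq v4) of 3 sorted Treg subsets from 4 young and 4 old mice were analysed, 24 in all. Per the submitters' processing notes and the study's methods, reads were aligned to GRCm39 with HISAT2 2.2.1, handled with SAMtools 1.13, counted with HTSeq 1.99.2 and analysed with DESeq2 1.44.0. The deposited values are a signal per gene, gene counts that the authors divided by a size factor, for 17464 genes. Dividing each library by the step of its low values (0.694 to 1.32 per read) gave whole numbers for 100% of values, to within 0.001 reads, and these recovered reads entered the count tests. The recovered reads give 15045747 to 29521942 per library, which limits the precision of low genes. Of the gene identifiers, 17353 were matched to GENCODE M39 and 111 were not.

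The 16630 genes that reached 10 in 4 or more libraries were fitted with limma 3.58.1 (R 4.3.3) on log2(value + 1) as 6 group means with 15 contrasts. A fold change is on that scale, and p-values were Benjamini-Hochberg adjusted over all genes. The fit took the 24 libraries as independent, so the p-values measure the spread between libraries of a group. Libraries of an age with the same number may come from 1 mouse, and this pairing entered only as an alternative. A call needs an adjusted p under 0.05 and a fold change over 1.5. The 10 genes and all gene lists were chosen with earlier results of these data known. Named list genes are those called in kTreg against aTreg or rTreg cells (up to 6 a list and comparison, by smallest p), S100a13 and Lgals9, and the 3 genes closest to a member where they recur or belong to S100a4, Anxa2 and Lgals1. S100a8 and S100a9 were named after their values were seen.

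Alternatives were other pseudocounts and filters, TMM scaling, the replicate number as a block, only the groups compared, edgeR 4.0.16 and DESeq2 1.42.0 on the recovered reads, and leaving out each library or each number of an age (called a mouse). The subsets were sorted from 4 mice an age, but no source used here says that a number marks 1 animal. The model was tested on simulated data. Sequences and coordinates are from GRCm39, and copies were sought with BLAST 2.17.0. One marker of the sort is not reported here.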

Additional observations from a re-analysis of the deposited data

Results flagged for a closer look

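In 5 of 60 groups of 4 libraries, 1 library lay apart from the other 3 by Dixon's test, where chance flags about 1 in 20 groups. These were S100a10 in old kTreg replicate 3 (17861, high), S100a11 in old rTreg replicate 4 (2388, low), Anxa1 in young rTreg replicate 2 (409, high), Anxa6 in young kTreg replicate 2 (18465, low) and Anxa6 in old rTreg replicate 1 (22578, high).

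The interaction of subset and age, the log2 difference in old mice minus that in young mice, passed the test in 10 cases. Between kTreg and rTreg cells it was -3.11 for S100a4, -2.60 for S100a6, -1.60 for S100a11, -3.44 for Anxa1, -1.98 for Anxa2, -1.99 for Lgals1 and -3.76 for Lgals3. Between kTreg and aTreg cells it was -2.98 for S100a6 and -1.73 for Anxa2, and between aTreg and rTreg cells -2.37 for Lgals3.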

How the results depend on the processing

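Over 43 alternatives and 2 added after the data were seen, 5470 of 5804 values for single genes kept their direction and their side of the threshold, 258 lost the threshold, 74 gained it and 2 changed sign. The sign changes were Anxa5 in kTreg against aTreg cells (log2 0.00042 without both libraries that stand apart, against -0.09) and Anxa1 in old against young kTreg cells (-0.026 when the libraries of young mouse 2 were left out too, against 0.20), neither of them called. TMM scaling moved the median of all genes by at most 0.03. Depth did not limit the 10 genes, whose lowest value in any library was 63.2 normalized counts.

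Counts of the 10 genes called moved as follows, and the cause was not tested. The shares of all genes called under these alternatives are not given, so the counts cannot be read against the shares of the main fit. With the replicate number as a block 1 gene was higher in young aTreg than rTreg cells (0 without it). The block added the kTreg against aTreg call of Anxa1 and the interactions of S100a11 (kTreg against aTreg) and Anxa6 (kTreg against rTreg), and removed the Lgals1 interaction (kTreg against rTreg). Deviations of libraries with the same number correlated weakly, with medians of 0.0911 to 0.153 for pairs of subsets. The lowest was -0.064 for rTreg with aTreg, 0.0386 for rTreg with kTreg and 0.0643 for aTreg with kTreg. The medians for other numbers were lower in each pair of subsets (-0.0507 to -0.0331). These correlations do not exclude a pairing, which the main fit left out. With only the groups compared in the model, the counts were 1 higher in old kTreg than rTreg, 1 higher in young aTreg than rTreg, 0 higher and 1 lower in old aTreg than rTreg, and 1 interaction for kTreg against aTreg and 0 for aTreg against rTreg. EdgeR gave 3 higher in kTreg than aTreg, 5 interactions for kTreg against aTreg and 0 for aTreg against rTreg. DESeq2 gave 1 higher in young and 2 in old aTreg than rTreg, and 8 interactions for kTreg against aTreg. Unadjusted p-values gave 1 higher and 2 lower in old kTreg than rTreg, 3 higher and 1 lower in young aTreg than rTreg, 2 higher in old aTreg than rTreg, 2 lower in old than young kTreg and 9 interactions for kTreg against aTreg. Without both libraries that stand apart there were 1 higher in old kTreg than rTreg, 2 higher in young and 0 in old aTreg than rTreg, and 0 interactions for kTreg against aTreg. Without young mouse 2 as well there were 1 higher and 2 lower in old kTreg than rTreg, 3 higher in young and 0 in old aTreg than rTreg, and 1 and 2 interactions for kTreg against aTreg and aTreg against rTreg.

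With each library or mouse left out in turn, the ranges were 3 to 7 for higher in kTreg than aTreg, 1 to 3 for higher in aTreg than rTreg, 6 to 9 for higher in young kTreg than rTreg, 0 to 1 for higher in old kTreg than aTreg and than rTreg, 0 to 2 for higher in young aTreg than rTreg, and 0 to 1 higher and 1 to 2 lower in old aTreg than rTreg. The interactions ranged from 0 to 6 for kTreg against aTreg, 4 to 8 for kTreg against rTreg and 0 to 1 for aTreg against rTreg. The 4 was without young mouse 3.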
